A study of Mus musculus with 12 samples.

Results

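Metallothioneins and the proteins that move zinc across membranes were followed in C2C12 cells, a mouse myoblast line, after depletion of KEAP1, of CCNF, or of both. The set holds 7 genes of the 54532 in the deposited table, taken by gene name: the metallothioneins Mt1 and Mt2, the metal-responsive transcription factor Mtf1, the zinc exporter Slc30a1, and the zinc importers Slc39a1, Slc39a10 and Slc39a14. All 7 passed the filter on low counts that left 15122 genes for testing. Cells received 30 nM of siRNA and were harvested 48 h later, in 4 groups of 3 biological replicates. The groups were siCONTROL (non-targeting), siKEAP1 (Keap1 targeted), siCCNF (Ccnf targeted) and siKEAP1/siCCNF (the double depletion). All 12 libraries came from the same line in growth medium, and the labels name no genetic modification, added metal or oxidant. KEAP1 and CCNF (cyclin F) are both substrate adaptors of cullin-RING E3 ligases, and the study sequenced these cells to ask whether an effect of CCNF on myogenesis runs through NRF2. How the 30 nM was divided when both siRNAs were given is not given in the sources used here.

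Metallothioneins are small, cysteine-rich proteins that bind zinc, copper and cadmium and buffer the free metal of the cytosol. When free zinc rises, the zinc-finger factor MTF1 enters the nucleus, binds metal response elements (MREs) in promoters, and drives metallothionein and Slc30a1 transcription. SLC30 proteins (ZnT) carry zinc out of the cytosol, into organelles or out of the cell, and SLC39 proteins (ZIP) carry it in. KEAP1 targets the antioxidant transcription factor NRF2 for degradation, and NRF2 acts through antioxidant response elements. Metallothionein genes respond to metals, glucocorticoids and oxidants and are used as readouts of both zinc and stress.

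The promoter windows of Mt1, Mt2 and Slc30a1 are shown because these are the genes of the set in whose windows the MRE core was found. Each runs from 250 bases before to 50 bases after the RefSeq start site (RefSeq, GRCm38.p6, 5′ to 3′ on the strand of the gene), with every match to the MRE core TGCGCNC or TGCACNC, on either strand, in capitals. A match on the opposite strand reads as its reverse complement.
Mt1, chr8:94178839-94179138, plus strand: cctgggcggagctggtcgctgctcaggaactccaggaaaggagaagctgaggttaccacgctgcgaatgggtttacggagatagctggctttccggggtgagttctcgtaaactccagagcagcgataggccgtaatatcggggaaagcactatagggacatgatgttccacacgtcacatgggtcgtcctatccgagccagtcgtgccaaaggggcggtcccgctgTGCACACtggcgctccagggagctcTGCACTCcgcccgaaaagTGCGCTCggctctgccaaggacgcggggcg
Mt2, chr8:94172368-94172667, plus strand: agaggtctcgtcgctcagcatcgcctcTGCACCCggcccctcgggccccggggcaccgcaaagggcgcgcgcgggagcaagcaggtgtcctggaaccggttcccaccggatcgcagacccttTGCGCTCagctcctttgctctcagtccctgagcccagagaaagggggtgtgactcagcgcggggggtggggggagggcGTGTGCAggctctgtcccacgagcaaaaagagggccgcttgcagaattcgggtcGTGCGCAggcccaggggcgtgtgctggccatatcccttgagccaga
Slc30a1, chr1:191906531-191906830, plus strand: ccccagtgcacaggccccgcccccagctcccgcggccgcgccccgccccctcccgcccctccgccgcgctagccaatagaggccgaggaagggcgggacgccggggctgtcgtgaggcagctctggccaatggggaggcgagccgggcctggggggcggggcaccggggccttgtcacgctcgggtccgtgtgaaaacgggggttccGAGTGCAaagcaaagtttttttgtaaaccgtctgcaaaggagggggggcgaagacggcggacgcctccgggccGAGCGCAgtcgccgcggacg

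The Mt1 window held 3 MRE cores, the Mt2 window 4, and the Slc30a1 window 2. In Mt1, the cores at bases 3 to 9 and 21 to 27 lie after the RefSeq start site used. Sequence more than 50 bases after that site was not searched. No core was found in the windows of Mtf1, Slc39a1 or Slc39a10, the last of which has 2 RefSeq start sites, so 6 of the 7 genes were matched to a window. Of all 32851 windows of 300 bases in this RefSeq table, 25.7% held at least 1 MRE core, 7.11% at least 2 and 0.518% at least 4. The antioxidant response element core TGACNNNGC, which overlapped no MRE core in these windows, was found once each in the windows of Mt2, Slc30a1 and Slc39a1 and in 12.4% of all windows. These are letter matches in a short window, and nothing about binding was measured.

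**Figure D1:**
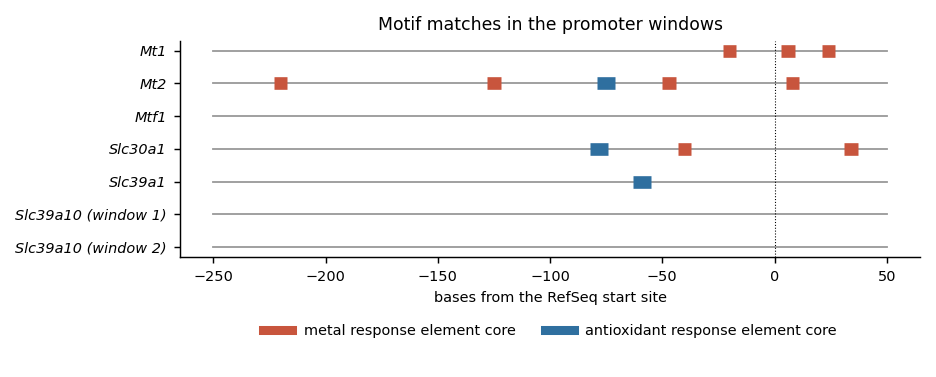
Positions of motif matches in the promoter windows, in bases from the RefSeq start site, with 1 line per window and Slc39a10 drawn with both of its start sites. Red blocks mark the metal response element core and blue blocks the antioxidant response element core, and red blocks are seen for Mt1, Mt2 and Slc30a1 only among these windows.

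The libraries held between 18464209 and 37743198 counts, and TMM scaling factors lay between 0.971 and 1.02. Keap1 stood at 12.3 to 12.8 CPM (read counts scaled to TMM-adjusted library size) in siKEAP1 libraries against 84.3 to 90.0 CPM in siCONTROL, and at 22.2 to 27.0 CPM in siKEAP1/siCCNF libraries, so that less of it was removed in the double depletion (log2 difference 0.93, adjusted p = 1.07e-06, edgeR). Ccnf stood at 77.7 to 85.5 CPM in siCONTROL, 56.4 to 64.9 CPM after siKEAP1, 19.7 to 21.3 CPM after siCCNF and 23.7 to 25.6 CPM after both. The 6 myoblast markers Myod1, Myf5, Des, Cdh15, Itga7 and Vcam1 were all expressed, and their summed level was 1509 to 1743 CPM in siCONTROL, 1003 to 1021 after siKEAP1, 734 to 771 after siCCNF and 725 to 812 after both. Of these markers, 5 were lower after siKEAP1 and all 6 after siCCNF and after both. The 6 myotube markers summed to 52.2 to 122 CPM in siCONTROL, 2.72 to 3.32 after siKEAP1, 14.6 to 21.2 after siCCNF and 5.91 to 6.75 after both, with Myog, Mymk and Myh3 among those that fell after siKEAP1. The 4 markers of blood, endothelial, epithelial and fat cells summed to 0.648 CPM at most. The muscle markers therefore moved with the same siRNA groups as the genes below, their part in these results was not tested, and in bulk RNA fewer cells of a type and less RNA per cell cannot be told apart. In siCONTROL library 1 and siKEAP1/siCCNF library 3, values departed from their group mean along gene length (Pearson r = -0.31 and -0.28 across the 15122 genes, which are not independent), and the values without siCONTROL library 1 are given where they moved most.

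Mt1 moved in opposite directions after the single depletions, and per gene length (FPKM) it had the highest level of the set in every group. Its locus (ENSMUSG00000031765, chromosome 8, 94179082 to 94180327, GRCm38) gave 343, 226 and 222 CPM in siCONTROL libraries 1, 2 and 3. After siKEAP1 the values were 359, 379 and 348 CPM, after siCCNF 150.3, 185 and 175 CPM, and after both 119, 134 and 144 CPM. No siKEAP1 library overlapped the control libraries, but siCONTROL library 1 lay just under the lowest of them, and every library with siCCNF lay below every library without it. The mean was 264 ± 68.6 CPM in siCONTROL, 362 ± 15.3 with Keap1 targeted, 170.2 ± 17.9 with Ccnf targeted and 132 ± 12.8 in the double depletion (SD, n = 3 each).

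Mt1 rose 1.37-fold after siKEAP1 (log2 0.46, SE 0.14, 95% interval 0.15 to 0.77, adjusted p = 0.0218, edgeR). It fell to 64.5% of the control mean after siCCNF (log2 -0.63, SE 0.14, adjusted p = 0.00282) and to 50.2% after both (log2 -0.996, SE 0.15, adjusted p = 0.000105). Relative to siKEAP1 alone, Mt1 was lower in the double depletion (log2 -1.45, SE 0.15, adjusted p = 3.34e-06). Among the 12 libraries, siCONTROL library 1 stood 0.41 above its group mean for Mt1 (log2), and the 869 tested genes of 1000 to 1500 bases, a class that holds the 1246-base Mt1, stood 0.19 above theirs at the median in that library. The part of this trend in the Mt1 value was not tested. The 1246 bases are the whole span of the locus, and a class of shorter genes was not examined. Without siCONTROL library 1 the siKEAP1 difference was 0.68 (adjusted p = 4.64e-05), and with the length trend removed it was 0.41 (adjusted p = 0.00641). Without that library the siCCNF difference of Mt1 was smaller, at -0.40 (adjusted p = 0.00227), and that of the double depletion was -0.77 (adjusted p = 1.12e-05). The call of Mt1 after siKEAP1 was lost in 4 settings. These were without siCONTROL library 2 (0.35, adjusted p = 0.0950), without siCONTROL library 3 (0.34, adjusted p = 0.0893), without siKEAP1 library 2 (0.42, adjusted p = 0.0710) and a fit of siKEAP1 and siCONTROL alone (0.46, adjusted p = 0.0536).

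Mt2, which lies 5513 bases upstream of Mt1 and encodes a closely similar protein, was counted at the edge of detection. Its row (ENSMUSG00000031762, chromosome 8, 94172664 to 94173568) held 10, 9 and 8 reads in siCONTROL, 7, 9 and 14 after siKEAP1, 10, 6 and 8 after siCCNF, and 5, 13 and 1 after both. The groups overlapped in reads, although on the CPM scale the 3 siCCNF libraries (0.215 to 0.285) lay below the 3 controls (0.385 to 0.488). The total over 12 libraries was 100 reads (exact Poisson 95% interval 81.4 to 122, counting error only) against 68628 for Mt1. Per gene length, the FPKM of Mt1 was 157 to 1551 times that of Mt2 across the libraries. In the GENCODE M21 annotation of GRCm38, 432 of the 588 annotated exonic bases of Mt2 (73.5%) lie within an exon of Gm45774, an antisense gene with 54 reads, and none of the exonic bases of Mt1 are shared. How reads that fall on both genes were assigned, and whether strand was used, is not given in the sources used here, so reads from Mt2 and its antisense partner cannot be told apart and the part of this overlap in the low count was not tested. The Mt2 differences from siCONTROL were -0.02 for siKEAP1 (log2, 95% interval -1.09 to 1.06), -0.83 for siCCNF (-1.95 to 0.28) and -0.92 for both (-2.08 to 0.23), none of them called by edgeR. Without siKEAP1/siCCNF library 2, which held 13 of the 19 reads of its group, the last difference was -1.79 and was called (adjusted p = 0.0348). The filter on low counts asked for 0.422 CPM in at least 3 libraries. Mt2 reached that level in 2 siCONTROL, 1 siKEAP1, 0 siCCNF and 0 siKEAP1/siCCNF libraries. It was thus tested through siCONTROL and siKEAP1, the groups in which it was higher, which favours a fall in the others.

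Mtf1, the factor that senses zinc, was higher in every depletion. Its row (ENSMUSG00000028890, chromosome 4, 124802104 to 124849800) gave 24.4, 28.9 and 31.1 CPM in siCONTROL, 34.7, 36.8 and 36.9 after siKEAP1, 37.9, 41.3 and 42.2 after siCCNF and 37.1, 39.5 and 32.2 after both. Every library of every depletion lay above every control library, and siKEAP1/siCCNF library 3 lay closest to them. The rises were 0.36 for siKEAP1 (log2, SE 0.099, adjusted p = 0.00966), 0.52 for siCCNF (SE 0.098, adjusted p = 0.00065) and 0.37 for both (SE 0.098, adjusted p = 0.00781, edgeR). Without siCONTROL library 1 they were 0.26 (adjusted p = 0.0376), 0.43 (adjusted p = 0.00154) and 0.27 (adjusted p = 0.0277). The 3 comparisons share the siCONTROL libraries. Adding siKEAP1 to siCCNF left Mtf1 at -0.15 relative to siCCNF alone (95% interval -0.36 to 0.05, adjusted p = 0.444). Of the 8907 exonic bases of Mtf1, 721 (8.09%) are shared with 1110065P20Rik on the opposite strand, a gene with 6543 reads against 11135 for Mtf1, so the 2 cannot be fully told apart.

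Slc30a1 (ZnT1), which exports zinc across the plasma membrane and is a well known MTF1 target, moved like Mt1 and with less spread. Its row (ENSMUSG00000037434, chromosome 1, 191906767 to 191913247) gave 17.6, 18.4 and 15.7 CPM in siCONTROL and 25.6, 25.7 and 26.1 CPM after siKEAP1. It gave 13.2, 12.7 and 12.9 CPM after siCCNF and 11.7, 12.2 and 11.5 CPM after both. No 2 groups overlapped, with siKEAP1 highest and siKEAP1/siCCNF lowest.

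In edgeR, Slc30a1 rose to 149.7% of the control mean after siKEAP1 (log2 0.58, SE 0.079, adjusted p = 5.94e-05) and fell to 75.0% after siCCNF (log2 -0.41, SE 0.08, adjusted p = 0.000819). With both siRNAs it fell to 68.5% (log2 -0.54, SE 0.081, adjusted p = 0.000116). Against siKEAP1 alone, the double depletion was lower by -1.13 (SE 0.08, adjusted p = 1.23e-07), and against siCCNF alone it differed by -0.13 (95% interval -0.30 to 0.04, adjusted p = 0.436). The siKEAP1, siCCNF and double-depletion calls against siCONTROL held in 23 of 23 alternatives each. An antisense gene, 1700034H15Rik, shares 8.92% of the exonic bases of Slc30a1 and had 34 reads against 5061.

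Slc39a10 (ZIP10), a plasma membrane zinc importer, had the largest difference of the 7 genes after siCCNF. Its row (ENSMUSG00000025986, chromosome 1, 46807544 to 46892852, minus strand) gave 23.1, 32.6 and 34.8 CPM in siCONTROL and 45.0, 41.9 and 41.1 CPM after siKEAP1. After siCCNF it gave 13.0, 12.1 and 14.1 CPM, and after both 18.6, 19.2 and 13.9 CPM. The siKEAP1 libraries lay above and the siCCNF and siKEAP1/siCCNF libraries below all control libraries, while the last 2 groups overlapped.

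Slc39a10 rose by 0.50 after siKEAP1 (log2, SE 0.14, adjusted p = 0.0138) and fell to 43.3% of the control mean after siCCNF (log2 -1.20, SE 0.15, adjusted p = 2.33e-05, edgeR). After both it fell to 57.1% (log2 -0.80, SE 0.15, adjusted p = 0.000676), and against siKEAP1 alone the difference was -1.30 (adjusted p = 9.23e-06). The siKEAP1 call was lost without siKEAP1 library 1 (0.46, adjusted p = 0.0532), and the rise was smaller without siCONTROL library 1 (0.33, adjusted p = 0.0388) and with the length trend also removed (0.29, adjusted p = 0.0291). The deviations of siCONTROL library 1 (-0.36) and siKEAP1/siCCNF library 3 (-0.29) were both downward, in the libraries that follow gene length.

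Slc39a14 (ZIP14), which imports zinc, iron and manganese, changed less and in one direction. Its row (ENSMUSG00000022094, chromosome 14, 70303469 to 70351425, minus strand) gave 77.4, 93.9 and 95.7 CPM in siCONTROL, 66.9, 67.0 and 77.1 after siKEAP1, 82.4, 81.9 and 83.7 after siCCNF and 72.3, 70.9 and 64.5 after both. The siKEAP1 and siKEAP1/siCCNF libraries lay below all controls, though siKEAP1 library 3 and siCONTROL library 1 nearly met. It fell after siKEAP1 (log2 -0.34, SE 0.088, adjusted p = 0.00756) and after both (log2 -0.36, SE 0.088, adjusted p = 0.0046, edgeR). After siCCNF the difference was -0.11 (95% interval -0.29 to 0.08, adjusted p = 0.342), which became a call without siCONTROL library 1 (-0.20, adjusted p = 0.0451).

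Slc39a1 (ZIP1), a broadly expressed zinc importer, showed no detectable difference. Its row (ENSMUSG00000052310, chromosome 3, 90248172 to 90253612) averaged 169 ± 4.87 CPM in siCONTROL, 172 ± 3.07 after siKEAP1, 177 ± 6.25 after siCCNF and 168 ± 6.56 after both (SD, n = 3). All 4 groups overlapped. The 95% intervals of its differences from siCONTROL were -0.09 to 0.15 for siKEAP1, -0.06 to 0.19 for siCCNF and -0.13 to 0.11 for both (log2).

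**Figure D2:**
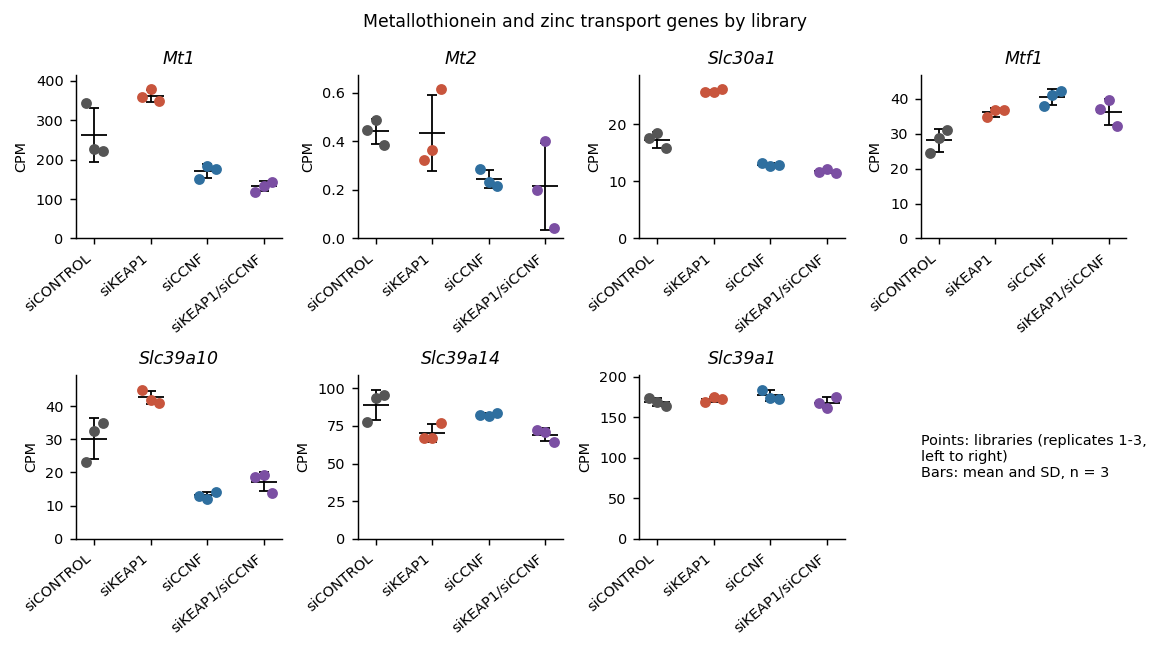
CPM (linear axes from 0) of the 7 genes in each of the 12 libraries, with 1 panel per gene, 1 point per library, and the mean and SD of 3 libraries per group. Mt1, Slc30a1 and Slc39a10 are high in the 3 siKEAP1 libraries and low in the 6 libraries with siCCNF, Mtf1 is lowest in siCONTROL, and Slc39a1 is level across groups.

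On the FPKM scale, which divides by gene length, the order of levels in siCONTROL was Mt1 (210.1 ± 54.8), Slc39a1 (71.0 ± 2.17), Slc39a14 (8.37 ± 0.941), Slc39a10 (4.91 ± 1.00), Slc30a1 (3.26 ± 0.264), Mtf1 (3.13 ± 0.372) and Mt2 (0.744 ± 0.0895; SD, n = 3). Slc30a1 and Mtf1, neighbours in that order, did not differ beyond their SD. In the control libraries Mt1 ranked between 170 and 229 among all genes by FPKM, in siKEAP1 between 115 and 125, in siCCNF between 320 and 403 and in the double depletion between 415 and 479. The length by which the Mt1 FPKM is divided, 1246 bases, is the whole span of the locus.

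After siKEAP1, Mt1, the zinc sensor Mtf1, the exporter Slc30a1 and the importer Slc39a10 were higher, the importer Slc39a14 was lower, and Mt2 and Slc39a1 were not called. That is 4 of the 7 genes higher and 1 lower, where 20.4% of all tested genes were called higher and 20.2% lower. In 4 genes every siKEAP1 library lay above every control (25.8% of all tested genes did), and in 1 every library lay below (25.7%). None was called and over 2-fold, where 11.5% of all genes were. The median of the 7 log2 differences was 0.36, against -0.01 over all tested genes.

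After siCCNF, 1 gene was higher (Mtf1) and 3 were lower (Mt1, Slc30a1 and Slc39a10), beside 22.5% higher and 25.5% lower among all tested genes. Slc39a10 was the 1 gene called and over 2-fold (11.4% of all genes). All siCCNF libraries lay above the controls for Mtf1 (27.8% of all genes) and below them for 4 genes, Mt2 included (28.6%). Of these 4, Mt2 passed the filter through siCONTROL and siKEAP1 libraries only, so its place below the controls was favoured by the filter. The median was -0.41 against 0.01 over all tested genes. With both siRNAs, 1 gene was higher (Mtf1) and 4 were lower (Mt1, Slc30a1, Slc39a10 and Slc39a14), beside 20.6% and 23.6%, with a median of -0.54 against 0.01. None was called and over 2-fold (10.3% of all genes). All libraries lay above the controls for Mtf1 (23.2% of all genes) and below them for the 4 lower genes (25.3%). The 3 comparisons share the same control libraries, so their values are given side by side and not as separate evidence.

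**Figure D3:**
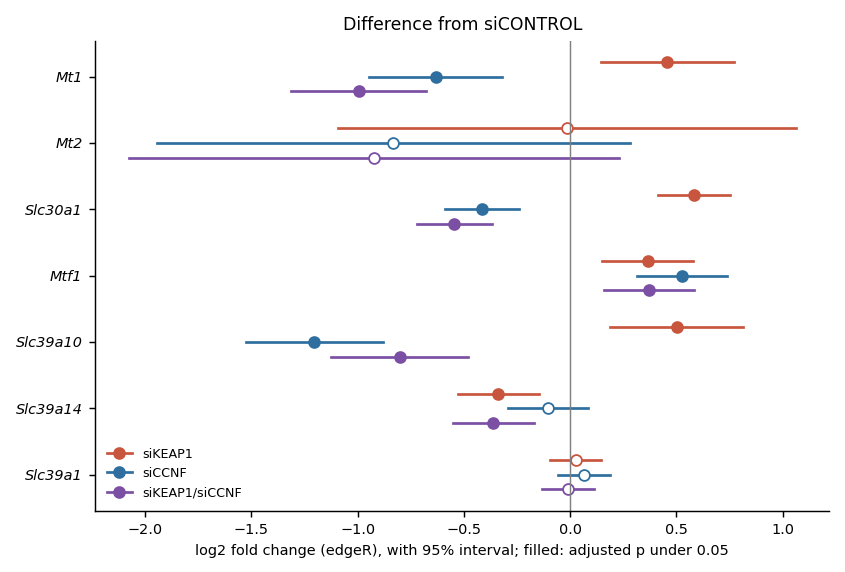
Log2 fold changes from edgeR of the 7 genes in each depletion against siCONTROL, with unadjusted 95% intervals, filled points marking an adjusted p under 0.05. Mt1, Slc30a1 and Slc39a10 lie to the right of 0 for siKEAP1 and to the left for siCCNF and siKEAP1/siCCNF, and Mt2, with few reads, has the widest intervals.

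Against siKEAP1 alone, 3 genes were lower in the double depletion, Mt1, Slc30a1 and Slc39a10, each more than 2-fold, and none was higher at an adjusted p under 0.05. Keap1 itself averaged 24.1 CPM in the double depletion and 12.6 CPM after siKEAP1. The added siCCNF and the weaker Keap1 depletion therefore cannot be told apart in this comparison. Among all tested genes 26.9% were called lower and 24.1% higher in this comparison, and 14.5% were called and over 2-fold. All libraries of the 3 genes lay below those of siKEAP1, as for 31.9% of all genes, and for 0 of the 7 did all lie above, against 29.0%. The count of 0 higher genes was also 0 at an unadjusted p under 0.05, and 0 with DESeq2 and with limma on FPKM. Mtf1 (0.01) and Slc39a14 (-0.02) were level between these groups, with 95% intervals of -0.20 to 0.22 and -0.21 to 0.17. The median was -0.91 against 0.0013 over all tested genes.

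Adding siKEAP1 to siCCNF gave no call among the 7 genes with edgeR, beside 5.19% of all tested genes (3.00% higher, 2.19% lower, 0.727% over 2-fold). At an unadjusted p under 0.05, 1 gene was higher (Slc39a10, 0.40) and 2 were lower (Mt1, -0.36, and Slc39a14, -0.26), and DESeq2 and limma also called 0 after adjustment. All libraries of the double depletion lay below those of siCCNF for Mt1, Slc30a1 and Slc39a14 (12.4% of all genes), and for 0 of the 7 above (13.4%). Without siCONTROL library 1, which is in neither group compared but enters the shared fit and the filter (15548 genes tested), these 3 unadjusted results became calls: Mt1 -0.37 (adjusted p = 0.0113), Slc39a10 0.39 (adjusted p = 0.0411) and Slc39a14 -0.26 (adjusted p = 0.0274). The median of the 7 genes was -0.13 against 0.0032 over all tested genes.

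The interaction, which subtracts the siKEAP1 effect seen in control cells from that seen with CCNF depleted, was called below 0 for 3 genes. It was -0.82 for Mt1 (log2, SE 0.2, adjusted p = 0.0119), -0.52 for Mtf1 (SE 0.14, adjusted p = 0.0171) and -0.71 for Slc30a1 (SE 0.11, adjusted p = 0.000657, edgeR). For all 3, siKEAP1 raised the gene in control cells, and in CCNF-depleted cells the estimate lay below 0 (-0.36, -0.15 and -0.13). Among all tested genes 10.5% had a called interaction below 0 and 10.6% above 0, 6.19% were called and over 2-fold, and none of the 7 was called above 0, also at an unadjusted p under 0.05 and with DESeq2 and limma. Slc39a10 did not pass: its siKEAP1 effect was 0.50 in control and 0.40 in CCNF-depleted cells, a difference of -0.10 with a 95% interval of -0.55 to 0.35. The Mtf1 interaction was lost without siCCNF library 3 (-0.49, adjusted p = 0.0511), and those of Mt1 and Slc30a1 were called in 22 of 22 alternatives. The part of the smaller Keap1 depletion in the siKEAP1/siCCNF libraries in these interactions was not tested.

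**Figure D4:**
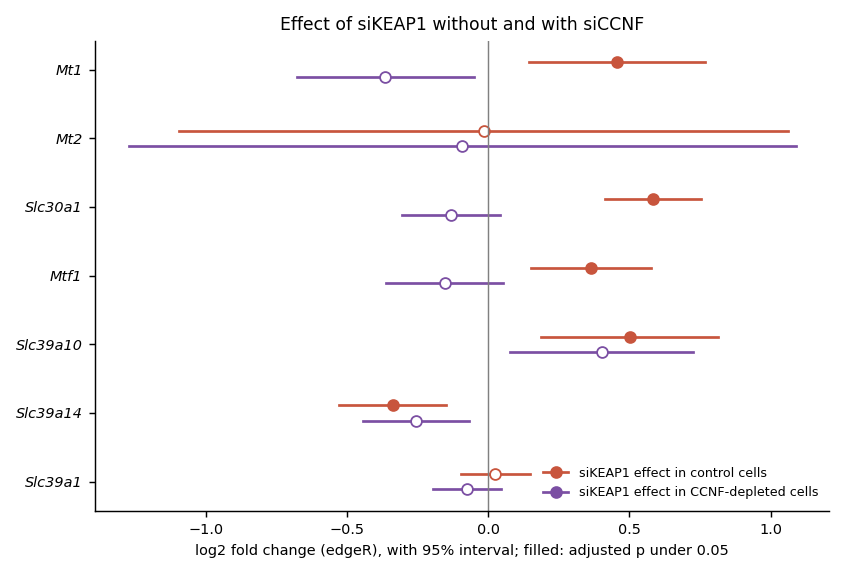
Log2 fold change of each gene after siKEAP1 in control cells (siKEAP1 against siCONTROL, red) and in CCNF-depleted cells (siKEAP1/siCCNF against siCCNF, purple), from edgeR with unadjusted 95% intervals, filled where the adjusted p is under 0.05. The red and purple points of Mt1, Mtf1 and Slc30a1 lie on opposite sides of 0, as do those of Slc39a1, which are close to 0 and not called. The points of Slc39a10 lie together above 0, and those of Slc39a14 together below it.

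Across the 12 libraries, log2 CPM of Mt1 and Slc30a1 correlated at r = 0.93, Slc30a1 and Slc39a10 at 0.89, and Mt1 and Slc39a10 at 0.78, while Mtf1 correlated with Mt1 at -0.38 and with Slc30a1 at -0.23. These are descriptions over libraries that share 4 treatments. The genes whose pattern was most like that of Mt1, among 11824 with a mean of at least 1 log2 CPM, were Tmem126b (r = 0.98), Csnk1g3 (0.97) and Mif4gd (0.96). For Slc30a1 they were Col5a3 (0.99), Fyn (0.99) and 6530402F18Rik (0.98), for Slc39a10 Coro2a (0.99), Zdhhc20 (0.98) and Cmtm4 (0.98), and for Mtf1 Rab3gap2 (0.98), Dhrs9 (0.98) and Dennd4a (0.98). Those of Slc39a14 were Pcgf3 (0.95), Slc7a2 (0.94) and Cers6 (0.94), and those of Slc39a1 were Hebp1 (0.94), Nagk (0.87) and R3hcc1l (0.86). For Mt2 they were Golph3 (0.90), Rab5a (0.89) and Akap17b (0.88), on few reads.

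The other zinc genes did not move as a block. Of the 22 other metallothionein, SLC30 and SLC39 genes, 15 passed the filter. After siKEAP1, 4 were higher and 7 lower, beside the 20.4% and 20.2% of all tested genes. Among the higher, Slc39a4 (ZIP4, the intestinal zinc importer) went from 0.141 ± 0.167 to 3.08 ± 0.0805 CPM (log2 4.50, SE 0.67, adjusted p = 0.000135), and Slc30a3 (ZnT3, known from synaptic vesicles) from 0.386 ± 0.22 to 3.51 ± 0.677 CPM (log2 3.20, adjusted p = 0.000583). Both are low genes: the level that the filter asked for in at least 3 libraries was reached by Slc39a4 in 0 siCONTROL and 3 siKEAP1 libraries, and by Slc30a3 in 2 siCONTROL and 3 siKEAP1 libraries. At 10 counts in every library neither was tested, and 2 genes were higher. Slc30a4 (ZnT4, an exporter of endosomes and lysosomes) gave 130.3, 154 and 161 CPM in siCONTROL and 279.6, 283 and 294 CPM after siKEAP1 (log2 0.95, adjusted p = 1.69e-05). The largest falls were those of Slc39a5 (-1.37, adjusted p = 0.0213, with overlapping libraries), Slc39a7 (ZIP7 of the endoplasmic reticulum, -0.61, adjusted p = 9.98e-05) and Slc30a7 (ZnT7 of the Golgi, -0.57, adjusted p = 0.00178).

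After siCCNF, 4 of the 15 were higher, led by Slc39a11 (0.72, adjusted p = 7.44e-06), Slc39a3 (0.49, adjusted p = 6.44e-05) and Slc39a7 (0.36, adjusted p = 0.00338), and 2 were lower, Slc39a9 (-0.63, adjusted p = 0.000475) and Slc30a4 (-0.31, adjusted p = 0.0355), beside 22.5% and 25.5% of all tested genes. After both, 4 were higher, led by Slc39a4 (3.60, adjusted p = 0.00102), Slc39a11 (0.82, adjusted p = 2.81e-06) and Slc39a8 (0.45, adjusted p = 0.0254), and 2 were lower, Slc39a9 (-0.63, adjusted p = 0.000492) and Slc30a7 (-0.33, adjusted p = 0.0361), beside 20.6% and 23.6%. Slc39a4 held 0 to 6 reads per siCONTROL library. It reached the filter level in 0 siCONTROL, 1 siCCNF and 3 siKEAP1/siCCNF libraries, so it was tested through the groups in which it was high. The 9 tested SLC39 importers had a median of -0.19 after siKEAP1, 0.33 after siCCNF and 0.12 after both, and the 6 tested SLC30 exporters -0.15, 0.0040 and -0.15. Slc30a4 also had a called interaction below 0 (-0.90, SE 0.16, adjusted p = 0.00123, edgeR).

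Neither of the remaining metallothioneins, Mt3 and Mt4, passed the filter. Mt3, known mainly from brain, had 0 reads in every siCONTROL and siCCNF library, 7, 5 and 5 reads after siKEAP1, and 0, 1 and 0 after both. Taking 3 reads over the siCONTROL group as the most that a count of 0 allows, the 17 reads of the siKEAP1 group stood 5.05-fold above that level per library size. That ratio leaves out the counting error of the 17 reads themselves (exact Poisson 95% interval 9.90 to 27.2). It is therefore not a lower limit, and no test was made. Mt4, of stratified epithelia, had 0 reads in siCONTROL and siCCNF, 0, 2 and 4 after siKEAP1, and 2, 0 and 0 after both.

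**Figure D5:**
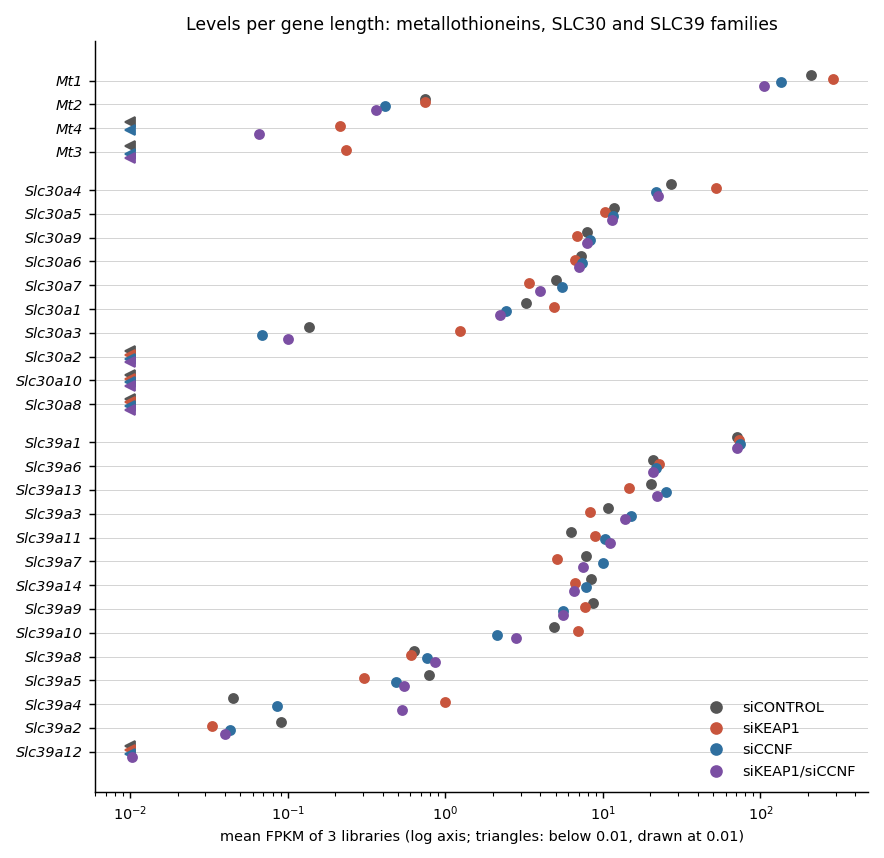
Mean FPKM of 3 libraries (log axis) for the metallothioneins and the SLC30 and SLC39 families in each group, with values under 0.01 drawn as triangles at 0.01. Mt1 and Slc39a1 are the highest genes in siCONTROL, Slc30a4 follows, and Slc39a4 and Slc30a3 lie far to the right of siCONTROL after siKEAP1. Mt3 and Mt4 had 0 reads in siCONTROL and 17 and 6 after siKEAP1, so their distance is set by the 0.01 at which siCONTROL is drawn.

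Of 6 other genes often named as MTF1 targets, 2 were higher and 3 lower after siKEAP1, 1 higher and 4 lower after siCCNF, and 2 higher and 3 lower after both. The shares of all tested genes called higher and lower were 20.4% and 20.2%, 22.5% and 25.5%, and 20.6% and 23.6% in these comparisons. Gclc, which makes glutathione and is also an NRF2 target, differed from siCONTROL by 2.91, -0.24 and 1.08 in these comparisons (log2, adjusted p = 2.86e-10, 0.0462 and 8.94e-07, edgeR). Slc40a1, the iron exporter ferroportin, differed by 2.00, 0.40 and 0.79 (adjusted p = 1.97e-08, 0.00963 and 7.4e-05), and Ndrg1 by -0.79, -1.46 and -1.51 (adjusted p = 1.83e-05, 8.03e-08 and 8.29e-08). The median of the 6 was -0.13, -0.37 and -0.25.

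Of 10 genes that handle copper, a metal that metallothioneins also bind, 8 were tested. After siKEAP1 edgeR called 0 of the 8, with 3 at an unadjusted p under 0.05, and DESeq2 and limma called 1 each, beside 20.4% of all tested genes higher and 20.2% lower. After siCCNF (22.5% and 25.5% of all genes) 1 was higher, Slc31a2 (1.19, adjusted p = 1.06e-07), and 1 lower, the copper importer Slc31a1 (-1.01, adjusted p = 3.89e-08). After both (20.6% and 23.6% of all genes), 2 were higher and 2 lower, among them Slc31a2 (1.14, adjusted p = 2.09e-07), Slc31a1 (-0.90, adjusted p = 1.24e-07) and the copper ATPase Atp7a (-0.76, adjusted p = 0.036, with overlapping libraries). The median of the 8 was 0.06, 0.11 and 0.07.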

How the data were processed

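Poly(A)-selected RNA of 12 C2C12 libraries was sequenced and analysed for the authors by a service provider. The authors deposited, for each gene and library, a count of reads without normalization and an FPKM value, together with their own fold changes and p-values, which were not used. The submitters' processing notes name HISAT2 and GRCm39, while the coordinates in the table are those of GRCm38. The counting tool, its strand setting and its treatment of shared reads are not given in the sources used here. The labels give 5% serum for growth, a lower share than the methods of the study state, and which applied to these libraries is not known. Counts per library lay between 18464209 and 37743198.

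Counts were analysed in R 4.3.3 with edgeR 4.0.16. Genes were kept by filterByExpr, libraries scaled by TMM, and 1 quasi-likelihood fit over the 12 libraries estimated a mean for each of the 4 groups. Benjamini-Hochberg adjustment ran over 15122 genes, and a gene was called at an adjusted p under 0.05, with changes over 2-fold counted beside. CPM values use TMM-scaled library sizes, and log2 CPM a prior count of 2. Replicates are labelled as biological, and no pair agreed within sampling noise (chi-square per degree of freedom 2.96 to 43.4). Intervals of log2 differences come from the edgeR fit and include the spread between libraries, while Poisson intervals and floors (3 counts) cover counting error only.

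The alternatives were DESeq2 1.42.0, total library sizes, no filter, at least 10 counts in every library, a replicate block, limma 3.58.1 on log2(FPKM + 1) and log2(FPKM + 0.1), removal of the gene length trend by splines with 5 degrees of freedom, each library left out, siCONTROL 1 and siKEAP1/siCCNF 3 left out together, and a fit of the compared groups. Removing the trend while leaving out siCONTROL 1 was added after seeing the data. The trend was fitted to deviations from the mean of each gene over all libraries, so its removal also takes out length-related differences between groups. The code was tested on simulated data. The 7 genes and all lists were chosen with earlier results of these data known. All 7 genes, Keap1 and Ccnf are named, then the up to 3 largest called changes per direction of the other zinc genes against siCONTROL, up to 3 of each other list, and the 3 genes most like each of the 7. Same-numbered replicates did not deviate together (r from -0.268 to 0.204, over 0.1 in 4 of 18 pairs), so no pairing was assumed.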

Additional observations from a re-analysis of the deposited data

Results flagged for a closer look

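The effect of siKEAP1 differed between control and CCNF-depleted cells for 3 of the 7 genes, by the interaction term of the edgeR model. Among all tested genes, 10.5% had a called interaction below 0 and 10.6% above 0. The difference, taken as the effect in CCNF-depleted cells minus that in control cells, was -0.82 for Mt1 (adjusted p = 0.0119), -0.52 for Mtf1 (adjusted p = 0.0171) and -0.71 for Slc30a1 (adjusted p = 0.000657). Over the alternatives it ranged from -1.12 to -0.71 for Mt1 (adjusted p from 8.79e-07 to 0.0335), from -0.59 to -0.34 for Mtf1 (adjusted p from 0.00385 to 0.0511) and from -0.76 to -0.56 for Slc30a1 (adjusted p from 9.7e-07 to 0.00289). In control cells siKEAP1 raised all 3 genes. In CCNF-depleted cells every library of the double depletion lay below every siCCNF library for Mt1 and Slc30a1, with no call in edgeR. The same held for 12.4% of all tested genes.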

How the results depend on the processing

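Of the 7 genes, every call against siCONTROL held in all 23 alternatives except those of Mt1 after siKEAP1 (19 of 23) and Slc39a10 after siKEAP1 (22 of 23). Every call of siKEAP1/siCCNF against siKEAP1 held in all 23. Each library left out in turn gave 3 to 4 of the 7 genes higher after siKEAP1, 3 to 4 lower after siCCNF, 4 to 5 lower after both, 2 to 3 with an interaction below 0, and, for siKEAP1/siCCNF against siCCNF, 0 to 1 higher and 0 to 2 lower. With all 12 libraries, 20.4% of all tested genes were higher after siKEAP1, 25.5% lower after siCCNF and 23.6% lower after both. A called interaction below 0 was found for 10.5%. For siKEAP1/siCCNF against siCCNF, 3.00% were higher and 2.19% lower. In that last comparison 1 gene was higher and 1 lower without the filter, 0 higher and 1 lower with the length trend removed, and 1 higher and 2 lower both with siCONTROL 1 and siKEAP1/siCCNF 3 left out and with the trend removed and siCONTROL 1 left out. With the trend removed, 1 gene had an interaction above 0 (Slc39a14, 0.26, and 0.25 also without siCONTROL 1). Over all genes, removing the trend moved the median interaction from 0.011 to 0.080 and the interaction calls from 3181 to 4138. Mt2 was called after both siRNAs (-1.79) and against siKEAP1 (-1.76) without siKEAP1/siCCNF library 2, and it gave no value at 10 counts in every library or with the compared groups alone, and no adjusted p with DESeq2 against siCCNF. With all 12 libraries, Mt2 reached the level of the filter in siCONTROL and siKEAP1 libraries only. Causes were not tested.

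The sign changed for differences that were not called. Leaving out single libraries gave -0.34 to 0.14 for Mt2 after siKEAP1, -0.96 to 0.32 for Mt2 against siCCNF and -0.93 to 0.34 for its interaction. It gave -0.0021 to 0.036 for Slc39a1 after siKEAP1, -0.042 to 0.011 after both, -0.059 to 0.090 for Mtf1 against siKEAP1, -0.058 to 0.050 for Slc39a14 against siKEAP1 and -0.21 to 0.065 for the Slc39a10 interaction. With the length trend removed, Slc39a1 was at -0.042 after siKEAP1 and 0.021 against siKEAP1, and Slc39a14 at 0.12 against siKEAP1, while the medians over all genes moved to -0.089 after siKEAP1 and 0.086 against siKEAP1. With siCONTROL 1 also left out the 3 gene values were -0.063, 0.028 and 0.13, and the Mt2 and Slc39a10 interactions 0.012 and 0.11. With siCONTROL 1 and siKEAP1/siCCNF 3 left out, Slc39a14 was at 0.031 against siKEAP1, Mt2 at 0.32 against siCCNF, and the Mt2 and Slc39a10 interactions at 0.33 and 0.19. Slc39a1 was at 0.0052 after both with 10 counts in every library. Mtf1 against siKEAP1 was at -0.0062 without TMM and at -0.0027 and -0.0040 with limma.

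Of the 15 other zinc genes, the count higher after siKEAP1 was 2 at 10 counts in every library, and the count lower ran from 4 to 7 with single libraries left out. The count lower after siCCNF ran from 1 to 2 and was 1 with limma on log2(FPKM + 0.1). The count lower after both ran from 1 to 3 and was 1 with either limma setting and with the 2 groups alone. For siKEAP1/siCCNF against siCCNF the count higher ran from 0 to 1, was 0 at 10 counts and 2 without siCONTROL 1 and siKEAP1/siCCNF 3, and the count lower ran from 1 to 3, was 1 with limma and 4 without those 2 libraries. The count with an interaction above 0 ran from 0 to 2, was 0 with limma on log2(FPKM + 0.1), 5 with the length trend removed, with or without siCONTROL 1, and 4 without the 2 libraries. The median interaction over all genes was 0.080 with the trend removed and 0.011 without its removal. The count with an interaction below 0 ran from 1 to 2, was 4 with limma on log2(FPKM + 1) and 1 with the trend removed and siCONTROL 1 left out. With all libraries, 20.4% of all tested genes were higher and 20.2% lower after siKEAP1, 25.5% lower after siCCNF and 23.6% lower after both. For siKEAP1/siCCNF against siCCNF, 3.00% were higher and 2.19% lower, and called interactions lay above 0 for 10.6% and below 0 for 10.5%.

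With the replicate block, the count of other zinc genes with an interaction above 0 was 0 against 1 without it, and no call of the 7 genes changed. The replicate numbers mark no shared batch in the labels, and 6 of 12 libraries correlated best with a library of their own number. Over all genes, the 785 calls of siKEAP1/siCCNF against siCCNF became 1257 with DESeq2, 1194 with the length trend removed, 1404 without siCONTROL 1, 1807 with both, 2186 without siCONTROL 1 and siKEAP1/siCCNF 3, 516 with the compared groups alone, 363, 484 and 367 without siCCNF 1, 2 and 3, and 402 without siKEAP1/siCCNF 2. The 3181 interaction calls became 4806 without siCONTROL 1 and siKEAP1/siCCNF 3. Mt2, Mt3 and Mt4 had at most 14 reads in any library, which limits what can be said of them.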
